A study of Mus musculus with 6 samples.

Results

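The genes described here are 10 regulators of neuronal RNA processing, Rbfox1, Rbfox2, Rbfox3, Nova1, Nova2, Celf2, Celf4, Elavl2, Elavl3 and Elavl4, out of 55401 genes counted in bulk RNA-seq of the mouse dorsal hippocampus. They were chosen by name, as neuron-enriched members of 4 protein families, with earlier results of these data known. Each symbol was matched to its gene in GENCODE release M21 on GRCm38. All 10 passed the filter on low counts, which kept 19969 genes. The study knocked down Snhg11, a long non-coding RNA of dentate gyrus granule cells, with an antisense oligonucleotide (ASO) that directs cleavage of its target RNA by RNase H. Both groups were WT male littermates from the Ts65Dn mouse colony, aged 4 months, and received 50 μg of ASO per hemisphere into the dentate gyrus. The 3 Control-ASO mice received an oligonucleotide of scrambled sequence and the 3 Snhg11-ASO mice the one against Snhg11, and the dorsal part of the hippocampus was taken 3 days later. The RNA came from all cells of that tissue, not only from the injected region or from neurons. In bulk tissue, fewer cells of a type and less RNA per cell cannot be told apart.

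The proteins of these families bind short motifs in newly made and mature transcripts. Rbfox, Nova and Celf proteins act mainly in the nucleus, where they sit in introns beside alternative exons and set which exons are kept, and Celf and neuronal Elavl proteins also act on the stability and translation of mature mRNA. In the brain they shape transcripts of ion channels, synaptic scaffolds and cytoskeletal proteins, and Rbfox3 is the antigen known as NeuN, the standard label of neuronal nuclei. Rbfox1 and Celf2 lie in very long genes, whereas Nova2 and Elavl3 lie in short ones.

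Family members code for similar proteins, so it was first asked whether a read could belong to more than 1 of them. The following stretches of 90 coding bases are shown because they are the most alike between relatives within a family, and lie in the part that codes for an RNA-binding domain. They are printed 5′ to 3′ along the transcript, from GENCODE M21 transcripts on GRCm38, and capitals mark bases that differ from the gene printed in lower case throughout. For the Elavl family, Elavl3 lies on the minus strand at chr9:22018585-22018674, Elavl4 on the minus strand at chr4:110206414-110206503 and Elavl2 on the minus strand at chr4:91253322-91253411.
Elavl3: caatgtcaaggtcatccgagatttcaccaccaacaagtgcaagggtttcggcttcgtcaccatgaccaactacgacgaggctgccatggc
Elavl4: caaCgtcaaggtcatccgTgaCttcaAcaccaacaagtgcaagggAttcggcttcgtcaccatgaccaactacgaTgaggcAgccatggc
Elavl2: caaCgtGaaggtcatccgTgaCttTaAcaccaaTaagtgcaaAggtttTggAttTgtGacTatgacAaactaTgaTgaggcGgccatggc
Elavl4 differed from Elavl3 at 7 of these 90 bases and Elavl2 at 17. The Rbfox stretches each cross an intron and run from chr16:7277148-7292199 on the plus strand for Rbfox1, chr15:77105655-77116941 on the minus strand for Rbfox2 and chr11:118502920-118505643 on the minus strand for Rbfox3.
Rbfox1: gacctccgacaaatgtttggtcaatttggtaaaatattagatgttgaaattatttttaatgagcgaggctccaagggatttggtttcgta
Rbfox2: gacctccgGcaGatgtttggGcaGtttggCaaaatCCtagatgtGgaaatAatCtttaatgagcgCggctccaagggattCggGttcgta
Rbfox3: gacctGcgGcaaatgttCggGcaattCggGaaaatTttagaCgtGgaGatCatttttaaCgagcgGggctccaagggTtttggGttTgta
Rbfox2 differed from Rbfox1 at 13 bases and Rbfox3 at 16. The Nova pair lies at chr12:46700839-46700928 on the minus strand (Nova1) and chr7:18957581-18957670 on the plus strand (Nova2), and differed at 16 bases.
Nova1: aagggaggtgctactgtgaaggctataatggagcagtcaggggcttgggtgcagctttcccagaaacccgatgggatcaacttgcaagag
Nova2: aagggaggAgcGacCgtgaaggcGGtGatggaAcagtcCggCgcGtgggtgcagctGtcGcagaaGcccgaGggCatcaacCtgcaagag
Over whole coding sequences, the identity of aligned bases was 77.7% for Elavl3 and Elavl4, 77.3% for Elavl2 and Elavl4, 73.5% for Elavl2 and Elavl3, 67.9% for Rbfox1 and Rbfox2, 68.0% for Nova1 and Nova2 and 54.7% for Celf2 and Celf4. The longest identical run was 29 bases, and none of the 10 genes shared a stretch of 50 bases, the length of a read, with another gene of its family. A read without mismatches within these exons thus falls on 1 member of a family. Elsewhere in the exons, 3.11% of the 50-base stretches of Elavl3 and 3.00% of those of Nova1 also occurred in other annotated genes in the same orientation. Annotations on the same strand account for part of this, as Gm33869 shares 310 exonic bases with Nova1 and Gm49318 shares 256 with Elavl3. Read pairs there are assigned to neither gene, and Gm49318 itself was listed with 0 counts in all 6 samples.

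Snhg11 itself was read first as a check of the labels. In CPM, counts scaled to a common library total, it had 551, 436 and 209 with Control-ASO and 139, 65.4 and 69.4 with Snhg11-ASO, and the groups did not overlap. Elavl3 was at about 50.3% of its Control-ASO level in the Snhg11-ASO samples, while the other 9 genes were between 70.6% and 109% of theirs. The longest genes, Rbfox1 and Celf2, were at 96.4% and 91.1%. By the quasi-likelihood test of edgeR, adjusted after Benjamini and Hochberg, 0 of the 10 genes had an adjusted p under 0.05, as was the case for 0 of all 19969 genes tested (0%). Snhg11, the target of the knockdown, was thus among the genes that this fit did not call. At an unadjusted p under 0.05, 1 of the 10 was lower (Elavl3) and 0 were higher, where 4.43% of all genes were lower and 3.68% higher, or 8.11% in all. For 2 of the 10, Elavl3 and Nova1, every Snhg11-ASO sample was lower than any Control-ASO sample, and this was so for 7.70% of all genes (15.4% in either direction). The log2 fold change was below 0 for 9 of the 10 genes and for 48.3% of all genes, with a median of -0.20 over the 10 and of 0.0097 over all genes. DESeq2 called 1 of the 10, again Elavl3, and 1.29% of all genes, 0.796% lower and 0.496% higher.

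**Figure D1:**
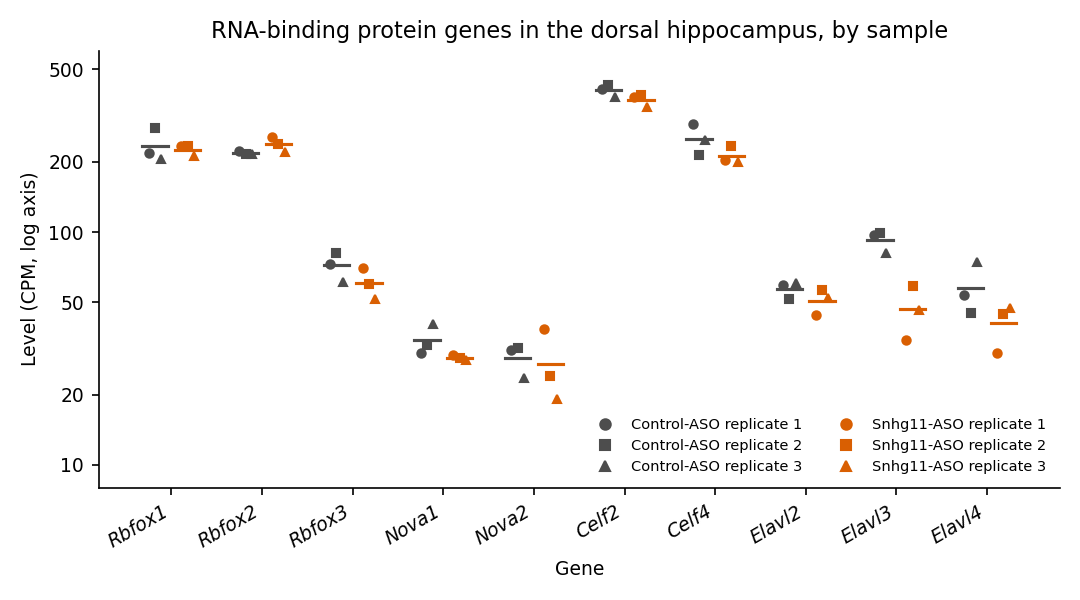
Level of each of the 10 genes in CPM (log axis) in the 3 Control-ASO (grey) and 3 Snhg11-ASO (orange) samples, with the symbol giving the replicate number and the bar the group mean. Elavl3 is the gene with the widest gap, with Snhg11-ASO samples from 34.3 to 58.9 CPM and Control-ASO samples from 81.5 to 98.7 CPM.

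Levels of different genes were set side by side only per length, as CPM per kb of exon in the Control-ASO samples. The exon length was merged over all annotated transcripts of a gene, so the order depends on the annotation. It was 4.4 kb for Rbfox1 and 25.88 kb for Celf2, which had 235 and 406 CPM before division. Rbfox1 was the most abundant on this scale, at 53.3 CPM per kb with a range of 46.8 to 63.5. Celf4 (29.2) and Rbfox2 (26.8) followed with overlapping ranges, then Celf2 (15.7). Elavl3 (13.4), Rbfox3 (12.4) and Elavl4 (10.7) came next, and each overlapped its neighbour in this order. Elavl2 was at 6.86 CPM per kb, and Nova1 (3.92) and Nova2 (3.46) were the least abundant, with overlapping ranges. In the Snhg11-ASO samples Elavl3 was at 6.75 CPM per kb, with a range of 4.98 to 8.55 that overlapped those of Elavl4 and Elavl2.

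The neuronal Elavl genes, also called Hu genes, code for proteins that bind AU-rich and U-rich sequences and stabilise mRNA of neurons. Elavl3, or HuC (ENSMUSG00000003410; chr9:22015005-22052023, minus strand), is a marker of differentiated neurons. Control-ASO replicates 1, 2 and 3 had 97.4, 98.7 and 81.5 CPM of Elavl3, and Snhg11-ASO replicates 1, 2 and 3 had 34.3, 58.9 and 46.4 CPM. The lowest sample was Snhg11-ASO replicate 1 and the groups did not overlap (p = 0.1 in a two-sided exact permutation test, which cannot give less for 3 samples against 3). The group means were 92.5 ± 9.56 and 46.5 ± 12.3 CPM (SD, n = 3 each). On the log2 scale the difference was -0.99 with a standard error of 0.20 (unadjusted p = 0.00157, adjusted p = 0.377 from edgeR). In DESeq2 the adjusted p was 0.00225, so the call depended on the tool. The adjusted p ranged from 2.1e-05 to 0.951 over 17 alternatives, of which the 4 that used DESeq2 gave values under 0.05 and the edgeR fits did not. Leaving out any 1 sample in edgeR gave log2 fold changes of -1.20 to -0.81, the latter without Snhg11-ASO replicate 1.

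Elavl4, or HuD (ENSMUSG00000028546; chr4:110203722-110351909, minus strand), is expressed in larger projection neurons and binds transcripts of growth-associated proteins. Its Control-ASO samples had 53.6, 44.9 and 74.2 CPM and its Snhg11-ASO samples 30.2, 44.5 and 47.3 CPM. Snhg11-ASO replicate 1 was again the lowest, Control-ASO replicate 3 stood above all others, and the groups overlapped. The log2 fold change was -0.50 with a standard error of 0.23 (unadjusted p = 0.0695, adjusted p = 0.644 from edgeR), and it lay between -0.65 and -0.28 with a sample left out. Elavl2, or HuB (ENSMUSG00000008489; chr4:91250763-91400785, minus strand), the third neuronal relative, was at 59.5, 51.4 and 60.2 CPM against 43.9, 56.2 and 52.2 CPM. Its groups overlapped, with a log2 difference of -0.17 ± 0.12 (standard error; adjusted p = 0.755 from edgeR) that was -0.07 without Snhg11-ASO replicate 1. Elavl1, or HuR, which is made in all cell types, had 85.4, 86.8 and 80.3 CPM against 115, 86.3 and 84.7 CPM, a log2 fold change of 0.18 (adjusted p = 0.760 from edgeR). Snhg11-ASO replicate 1, the sample in which Elavl2, Elavl3 and Elavl4 were lowest, had the most Elavl1, and without it the log2 fold change of Elavl1 was 0.02.

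The Rbfox proteins bind the motif GCAUG beside alternative exons. Rbfox1 (ENSMUSG00000008658; chr16:5885355-7411526, plus strand), the longest gene of the 10, sets exon use in synaptic and channel transcripts. Rbfox1 was measured at 218, 279 and 206 CPM with Control-ASO and at 233, 234 and 212 CPM with Snhg11-ASO. The Snhg11-ASO samples lay inside the Control-ASO range, and only Control-ASO replicate 2 was above them. Its log2 fold change was -0.05 with a standard error of 0.13 (adjusted p = 0.934 from edgeR), and it was 0.09 without Control-ASO replicate 2.

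Rbfox2 (ENSMUSG00000033565; chr15:77078990-77307004, minus strand) is the family member also found outside neurons. It was the only one of the 10 genes with a log2 fold change above 0, at 222, 217 and 217 CPM against 257, 238 and 221 CPM. The lowest Snhg11-ASO sample fell among the Control-ASO samples, and the log2 fold change was 0.13 with a standard error of 0.09 (adjusted p = 0.746 from edgeR), or 0.07 without Snhg11-ASO replicate 1. Rbfox3 (ENSMUSG00000025576; chr11:118489762-118911597, minus strand), which codes for NeuN, was at 73.2, 81.4 and 61.1 CPM against 70.0, 59.7 and 51.4 CPM. The groups overlapped, and the log2 difference was -0.25 ± 0.15 (standard error; adjusted p = 0.710 from edgeR), with a range of -0.37 to -0.15 when a sample was left out.

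The Nova proteins bind clusters of YCAY motifs and regulate exons of synaptic genes, with Nova2 more abundant in the cortex and hippocampus and Nova1 in the hindbrain. Nova1 (ENSMUSG00000021047; chr12:46694517-46818929, minus strand) was at 30.3, 32.6 and 40.1 CPM with Control-ASO and at 29.7, 28.7 and 28.3 CPM with Snhg11-ASO. The groups did not overlap, by a margin of less than 1 CPM, and the Snhg11-ASO samples varied little (28.9 ± 0.728 CPM, SD, n = 3). Nova1 had a log2 fold change of -0.25 with a standard error of 0.13 (unadjusted p = 0.0944, adjusted p = 0.672 from edgeR), and of -0.13 without Control-ASO replicate 3. Nova2 (ENSMUSG00000030411; chr7:18925888-18965319, plus strand), a short gene of 39.4 kb, was at 31.2, 31.9 and 23.7 CPM against 38.5, 24.0 and 19.1 CPM. Snhg11-ASO replicate 1 was the highest of all 6 samples and replicate 3 the lowest. Its log2 difference of -0.09 ± 0.27 (standard error; adjusted p = 0.943 from edgeR) became 0.11 without Snhg11-ASO replicate 3 and -0.43 without replicate 1.

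The Celf proteins bind GU-rich sequences. Celf2 (ENSMUSG00000002107; chr2:6539694-7509563, minus strand) regulates splicing and mRNA stability and is expressed in brain, heart and T cells. Celf2 was at 411, 429 and 379 CPM with Control-ASO and at 378, 389 and 343 CPM with Snhg11-ASO. The groups overlapped through the lowest Control-ASO sample, and the log2 fold change was -0.14 with a standard error of 0.10 (unadjusted p = 0.210, adjusted p = 0.752 from edgeR), or -0.08 without Snhg11-ASO replicate 3. Celf4 (ENSMUSG00000024268; chr18:25477632-25754157, minus strand), which is restricted to neurons and binds many synaptic mRNAs, was at 291, 214 and 248 CPM against 204, 234 and 200 CPM. The groups overlapped, with a log2 difference of -0.24 ± 0.13 (standard error; adjusted p = 0.682 from edgeR) that was -0.13 without Control-ASO replicate 1.

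Other Celf genes were read beside these. Celf6, another brain-enriched member, was at 18.5, 14.1 and 13.5 CPM with Control-ASO and at 7.84, 12.3 and 10.8 CPM with Snhg11-ASO. The groups did not overlap and Snhg11-ASO replicate 1 was the lowest. For Celf6 the log2 fold change was -0.57 with a standard error of 0.21 (unadjusted p = 0.0308, adjusted p = 0.574 from edgeR). Celf1 (log2 fold change 0.14), Celf3 (-0.13) and Celf5 (-0.16) overlapped between groups. Together with Elavl1, 3 of these 5 relatives were lower and 2 higher, with a median of -0.13.

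The contrast between long and short genes was made because genes of great genomic span (the distance from start to end of a gene, introns included) had lower levels in the Snhg11-ASO samples as a class. The median log2 fold change was -0.37 over the 223 tested genes that span more than 500 kb, of which 90.1% were below 0. It was -0.13 over 763 genes of 200 to 500 kb, and between -0.02 and 0.04 in all shorter classes. Rbfox1 spans 1526 kb and Celf2 970 kb, and both lay above the upper quartile of their class, which was at -0.15. Of the 223 genes, 193 had a lower log2 fold change than Rbfox1 and 170 a lower one than Celf2. Rbfox2 (228 kb) also stood high in its class, with 641 of 763 genes below it, whereas Rbfox3 (422 kb) and Celf4 (277 kb) stood in the lower part of the same class, with 246 and 254 genes below them.

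**Figure D2:**
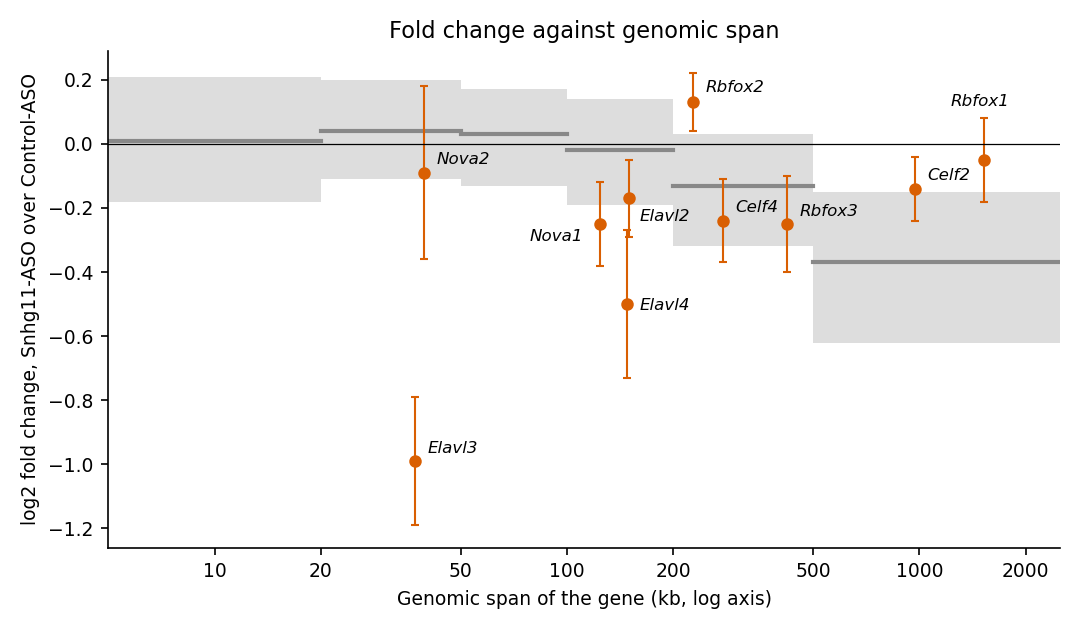
Log2 fold change of Snhg11-ASO over Control-ASO (points, with standard error) against genomic span in kb (log axis) for the 10 genes. Grey bars and shading are the median and quartiles of all tested genes in 6 classes of span; Rbfox1 and Celf2 lie above the shading of genes over 500 kb (median -0.37), and Elavl3 lies far below that of genes of 20 to 50 kb (median 0.04).

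Elavl3 is the shortest of the 10 at 37.0 kb, and stood at the other end of its class. Among 4387 tested genes of 20 to 50 kb, with a median of 0.04, 4348 had a higher log2 fold change than Elavl3 and 38 a lower one. Over all 19969 genes, 287 were lower. Nova2 has almost the same span as Elavl3 and was at -0.09. Of the 3 members between 100 and 200 kb, Elavl4 had 112 of 1467 class genes below it, Nova1 300 and Elavl2 415. The mean log2 fold change was -0.09 for the long genes Rbfox1 and Celf2 and -0.30 for the other 8 genes, a difference of 0.20. Without Elavl3 the mean of the other 7 was -0.20 and the difference 0.10. These 7 include Rbfox2, Rbfox3 and Celf4 of the class of 200 to 500 kb, which was itself lower. In each sample, log2 CPM centred on the Control-ASO mean gave long minus short values of -0.07, 0.21 and -0.14 with Control-ASO and of 0.27, 0.19 and 0.19 with Snhg11-ASO. These overlapped through Control-ASO replicate 2, the sample with the highest Rbfox1. Across the 10 genes, Spearman's rho of span and log2 fold change was 0.44, a description over genes that share the same 6 libraries. When offsets took each sample's trend with span out of all genes, Rbfox1 was at 0.40 and Celf2 at 0.23, while Elavl3 remained at -1.03, and long minus short was 0.54. None of these values had an adjusted p under 0.05 in edgeR (0.636, 0.664 and 0.519).

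The introns of the long genes hold annotated transcripts of their own on the same strand, and ribo-depleted libraries also count unspliced RNA, so a count on such a gene can come from the intron of its host. Celf2 holds 3 of them with no exonic overlap, all above the count filter. Gm10855 (chr2:6932541-6935081) had 569, 534 and 477 counts with Control-ASO and 314, 476 and 440 counts with Snhg11-ASO, in libraries of greater depth. In CPM these were 19.3, 15.9 and 14.2 against 8.24, 11.4 and 10.1. The groups did not overlap, and the Snhg11-ASO mean was 60.2% of the Control-ASO mean. On the log2 scale the difference was -0.73 with a standard error of 0.18 (unadjusted p = 0.00497, adjusted p = 0.465 from edgeR and 0.0339 from DESeq2). It was -0.61 without Control-ASO replicate 1, the library that stood highest, and also -0.61 without Snhg11-ASO replicate 1. Gm10115 (chr2:6950453-6951680) had 13.7, 10.6 and 9.23 CPM against 5.48, 8.30 and 7.58 CPM, again without overlap, and a log2 fold change of -0.65 (unadjusted p = 0.0230, adjusted p = 0.551 from edgeR). Gm26315, the least counted of the 3 and named here after its values were seen, had a log2 fold change of -0.60 (adjusted p = 0.679 from edgeR) and did not overlap between groups either. Without Control-ASO replicate 1, Gm10115 was at -0.48 and Gm26315 at -0.40.

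**Figure D3:**
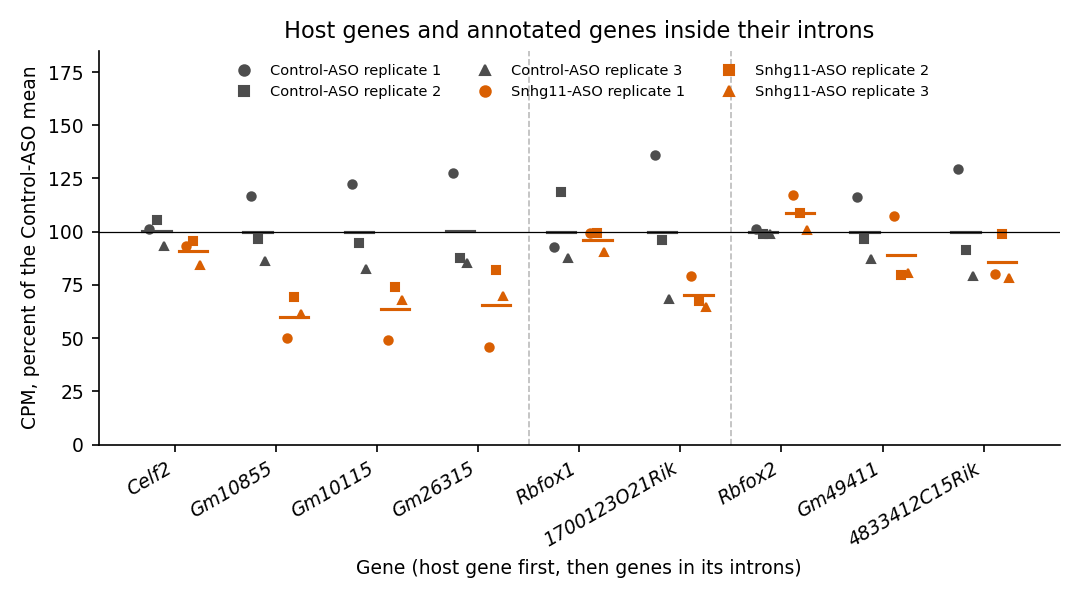
CPM in each sample as a percent of the Control-ASO mean for Celf2, Rbfox1 and Rbfox2 and for annotated genes inside their introns on the same strand (grey, Control-ASO; orange, Snhg11-ASO; bars, group means). The genes inside Celf2 are at 60.2% to 65.7% of Control-ASO while Celf2 itself is at 91.1%; Control-ASO replicate 1 is the highest sample for every intronic gene shown.

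Set against the counts of the host gene in the same library, the genes inside Celf2 summed to 8.61%, 6.54% and 6.60% of the Celf2 count with Control-ASO and to 3.85%, 5.44% and 5.53% with Snhg11-ASO. The groups did not overlap (two-sided exact permutation test, p = 0.1, adjusted p = 0.3 over the 6 host genes compared). The genes inside Rbfox2 summed to 6.54%, 5.04% and 4.54% of its count against 4.33%, 4.47% and 4.28%, also without overlap (exact permutation test, p = 0.1, adjusted p = 0.3). In Rbfox1, the gene 1700123O21Rik (chr16:5975585-5998496) came to 4.09%, 2.25% and 2.18% with Control-ASO and to 1.89% to 2.23% with Snhg11-ASO, where the groups overlapped (exact permutation test, p = 0.2). Its own log2 fold change was -0.51 (unadjusted p = 0.104, adjusted p = 0.680 from edgeR), and -0.23 without Control-ASO replicate 1. For Rbfox3, Nova1 and Celf4 the shares overlapped between groups (exact permutation test, p = 0.6, 0.2 and 0.8), and their genes ranged in log2 fold change from -0.34 to 0.40. The 2 most counted genes inside Rbfox2, Gm49411 (-0.17) and 4833412C15Rik (-0.22), and those inside Nova1, Gm33869 (0.05) and Gm48542 (-0.34), overlapped between groups, as did Gm11749 in Rbfox3 (-0.03) and Gm25845 in Celf4 (-0.21). Without Control-ASO replicate 1, Gm49411 was at -0.05, 4833412C15Rik at -0.0027, Gm11749 at 0.24 and Gm25845 at 1.29, while Gm33869 was at 0.12 and Gm48542 at -0.49. Control-ASO replicate 1 was also the library with the most read pairs assigned to no gene. These were 51.4% of all pairs, against 46.7% and 45.5% in the other Control-ASO samples, while Snhg11-ASO samples had 48.9%, 44.6% and 43.5%. They include pairs on several places and on more than 1 gene, so they are not a measure of reads outside exons. The part of the unassigned pairs in the shares was not tested.

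The 10 genes were also read against 9 markers of neurons, since tissue pieces can differ in how many neurons they hold. None of the 9 markers was at 0, and their summed level was 3505 to 3696 CPM in the Control-ASO samples and 3004 to 3485 CPM in the Snhg11-ASO samples, without overlap. Of the 9, 7 were lower and 2 higher, with a median log2 fold change of -0.12. Syt1 (-0.32, unadjusted p = 0.0135 from edgeR), a calcium sensor of synaptic vesicles, and Tubb3 (-0.51, unadjusted p = 0.0263 from edgeR), the neuronal beta-tubulin, were at an unadjusted p under 0.05. Tubb3 was at -0.33 without Snhg11-ASO replicate 1. The higher markers were Slc17a7 of excitatory neurons (0.06, unadjusted p = 0.590 from edgeR), which overlapped between groups, and Nefm (0.05, unadjusted p = 0.509 from edgeR), which did not. Syt1 spans 513 kb and was at -0.07 with the span offsets, against -0.58 for Tubb3. The mean of the sum was 3616 CPM with Control-ASO and 3266 CPM with Snhg11-ASO, and the mean of Syt1 alone was 938 and 753 CPM, the larger part of that difference. The sum of the other 8 markers overlapped between groups, at 2591 to 2734 against 2267 to 2688 CPM. As a share of the sum of all 9, Elavl3 was at 2.78%, 2.71% and 2.21% with Control-ASO and at 1.14%, 1.69% and 1.40% with Snhg11-ASO, which is 55.1% of the Control-ASO mean. These did not overlap. Elavl4 was at 77.8% of its Control-ASO share with overlapping samples, and Rbfox1 (107%), Celf2 (101%), Rbfox3 (93.7%), Nova1 (93.9%), Nova2 (106%), Celf4 (93.5%) and Elavl2 (98.2%) overlapped as well. Rbfox2 was at 122% and its Snhg11-ASO shares, 8.56%, 6.83% and 6.67%, were all above its Control-ASO shares of 6.32%, 5.95% and 5.88%. The groups of Nova1 overlapped on this scale, so its separation in CPM did not remain. With Syt1 left out of the sum, a choice made after seeing the data, Elavl3 still did not overlap between groups, Rbfox2 was at 117% and its groups overlapped, and Nova1 was at 90.5% and still overlapped.

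Summed markers of each other cell type in the dissected piece overlapped between groups when all samples were set against each other. Taken singly, 1 astrocyte marker did not overlap and was lower with Snhg11-ASO. Of the 6 astrocyte markers, 2 were lower and 4 higher, so their sum joins opposed changes. The summed level of 6 astrocyte markers was 4280 to 6438 against 3960 to 6499 CPM, of 5 oligodendrocyte markers 1433 to 2644 against 1578 to 3278, of 5 microglia markers 160 to 278 against 74.6 to 256, of 4 endothelial markers 63.1 to 100 against 72.1 to 120 and of 4 granule cell markers 319 to 386 against 362 to 487, with no marker at 0. The 6 markers of choroid plexus, a tissue next to the hippocampus, summed to 1887 CPM in Control-ASO replicate 1, 1222 in replicate 3 and 1291 in Snhg11-ASO replicate 1, and 36.1 to 121 CPM in the other 3 samples. Samples of the same replicate number were also set side by side as pairs, although no label ties them to each other. The oligodendrocyte, endothelial and granule cell sums were higher with Snhg11-ASO in 3 of 3 pairs and the neuron sum lower in 3 of 3. Astrocytes, microglia and choroid plexus were mixed. Of the 10 genes, Rbfox3, Nova1, Celf2, Elavl3 and Elavl4 were lower in 3 of 3 pairs, where 16.7% of all genes were, and Rbfox2 was higher in 3 of 3, where 17.6% were. The part of the cell markers in the levels of the 10 genes was not tested.

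Other RNA-binding proteins and targets were grouped in lists written from general knowledge, in which edgeR and DESeq2 called 0 genes at an adjusted p under 0.05. In the list of other alternative splicing regulators, 15 of 18 genes passed the filter on counts, with 7 lower, 8 higher and a median log2 fold change of 0.08. Khdrbs2, which codes for the neuronal splicing regulator SLM1, was at 20.5, 16.6 and 23.4 CPM against 8.63, 14.3 and 15.4 CPM, a log2 fold change of -0.66 (unadjusted p = 0.0313 from edgeR). Its relative Khdrbs3 was at -0.19 (unadjusted p = 0.106). Ptbp3 was at 48.2, 60.9 and 51.4 CPM against 79.0, 66.3 and 66.2 CPM, a log2 fold change of 0.40 (unadjusted p = 0.0156 from edgeR). Ptbp1, the repressor of neuronal exons that neurons switch off, was at 28.3, 23.9 and 24.9 CPM against 51.9, 29.4 and 29.1 CPM, a log2 fold change of 0.52 (unadjusted p = 0.0666 from edgeR) that was 0.19 without Snhg11-ASO replicate 1. For these 4 genes, which were picked for their small p-values, the groups did not overlap. Over the 15 tested genes of the list, 3 were lower and 2 higher without overlap, where 7.70% and 7.73% of all genes were. Snhg11-ASO replicate 1 was the sample farthest from the Control-ASO samples in each of the 4. Khdrbs2 spans 486 kb and was at -0.44 without that sample and at -0.41 with the span offsets, and Khdrbs3 was at -0.10 without that sample.

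**Figure D4:**
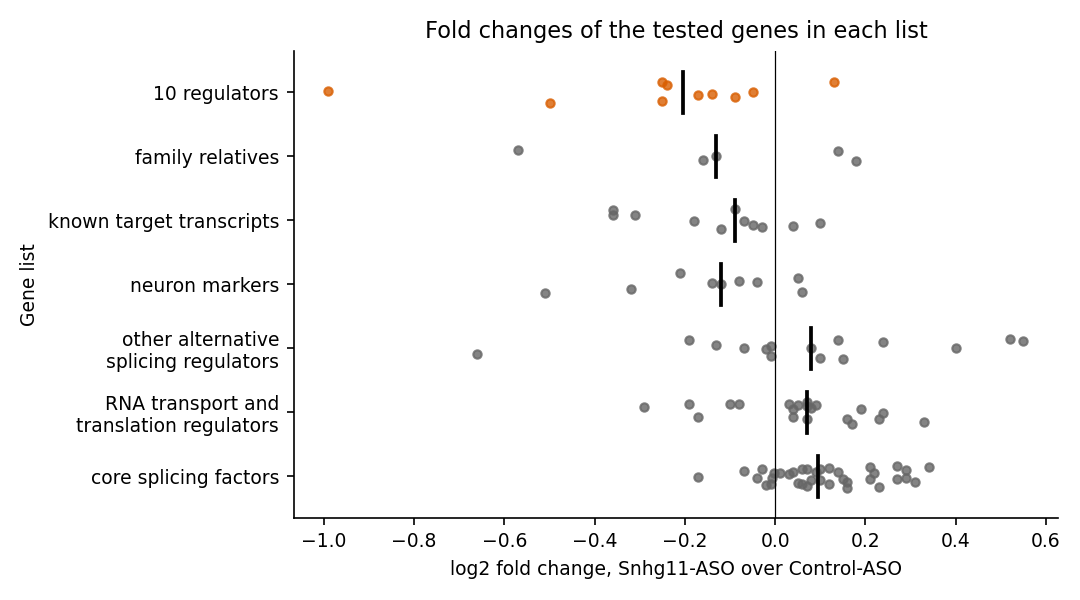
Log2 fold change of Snhg11-ASO over Control-ASO for each tested gene (points) and the median (black line) in the 10 regulators (orange) and 6 other lists (grey). The median is -0.20 for the 10 regulators, -0.13 for their family relatives, -0.09 for known targets, -0.12 for neuron markers, and between 0.07 and 0.10 for the other regulators and core factors.

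The 36 core splicing factors, the parts of the spliceosome and the general SR and hnRNP proteins, were higher in 28 and lower in 8, with a median of 0.10 and log2 fold changes from -0.17 to 0.34. Their summed level was 3865 to 4092 CPM with Control-ASO. It was 4582 CPM in Snhg11-ASO replicate 1 but 4034 and 4025 CPM in replicates 2 and 3, inside the Control-ASO range. None of the 36 was at an unadjusted p under 0.05 in edgeR, and 6 were above Control-ASO in every Snhg11-ASO sample, where 7.73% of all genes were. The smallest p-values belonged to U2af1 (0.29, unadjusted p = 0.0715), which recognises the 3′ splice site, and Snrpc (0.34, unadjusted p = 0.0867) on the higher side, and to Snrpa (-0.17) and Hnrnpa1 (-0.07) on the lower side. Among 20 regulators of RNA transport and translation, 15 were higher and 5 lower, with a median of 0.07. Their summed level overlapped between groups, at 2432 to 2555 CPM with Control-ASO. With Snhg11-ASO it was 2835, 2558 and 2425 CPM in replicates 1, 2 and 3. Msi2, an RNA-binding protein of neural progenitors and glia, was at 106, 90 and 103 CPM against 75.2, 82.4 and 87.4 CPM, a log2 fold change of -0.29 (unadjusted p = 0.0260 from edgeR), and Stau2 (-0.17), Cpeb1 (0.33) and Pum2 (0.23) were the other genes of lowest p. Msi2 (379 kb) and Stau2 (291 kb) are long genes and were at -0.09 and -0.02 with the span offsets. Cpeb1 and Pum2 were at 0.11 and 0.09 without Snhg11-ASO replicate 1, and U2af1 and Snrpc at 0.15 and 0.20.

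Known targets of these proteins were read as total levels only, since counts per gene do not show which exons were used. Of 11 such transcripts, 9 were lower and 2 higher, with a median of -0.09 and log2 fold changes from -0.36 to 0.10. Mapt, the gene of tau, was at 260, 260 and 264 CPM against 162, 235 and 215 CPM, a log2 fold change of -0.36 (unadjusted p = 0.0395 from edgeR), and was the only one of the 11 at an unadjusted p under 0.05. Gap43, a transcript bound by Elavl4, was at 72.6, 39.1 and 73.7 CPM against 37.0, 48.1 and 58.9 CPM, where the groups overlapped; it is named here after its values were seen. Cacna1c, a calcium channel gene with Rbfox-regulated exons, was at -0.31 (unadjusted p = 0.221), Kcnj6 at 0.10 and Agrn at 0.04. Cacna1c spans 609 kb, and was at -0.07 without Control-ASO replicate 1 and at -0.02 with the span offsets. Mapt was at -0.22 without Snhg11-ASO replicate 1.

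The genes whose pattern over the 6 samples was most like that of the long members were found by the root mean square difference of log2 CPM, each centred on the mean of the gene. For Rbfox1 they were Mrpl44 (0.0349), Mrps27 (0.0492) and Dlgap1 (0.0508), and for Celf2 they were Rfng (0.0222), Cacng2 (0.0238) and Gadd45gip1 (0.0313). The measure was taken over 6 samples and says nothing of shared function.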

How the data were processed

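Libraries were made from ribo-depleted total RNA with a strand-specific kit and sequenced as read pairs. The authors aligned them to mm10 (GRCm38) with STAR 2.5.2a and deposited raw counts of read pairs per gene, not normalized and not pooled. Their methods name Rsubread for counting, whereas the deposited values have the layout of STAR's own counts. The annotation release is not given in the sources used here, and GENCODE M21 matched 55141 of 55401 identifiers. Counts on the reverse strand were used, which held 96.2% to 96.8% of stranded counts. Files account for 59542425 to 77826229 pairs per sample, of which 28951250 to 43997537 fell on genes. Lines that name no gene held 43.5% to 51.4% of pairs and stayed out of library sizes and tests. Pairs on exons of more than 1 gene (0.600% to 0.761%) and on several places are assigned to no gene.

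Genes were kept by filterByExpr at a minimum count of 10. With TMM factors of 0.982 to 1.02, all 3 Snhg11-ASO samples were compared with all 3 Control-ASO samples with edgeR's quasi-likelihood test and Benjamini-Hochberg adjustment over 19969 genes at 0.05 (R 4.3.3, edgeR 4.0.16). Standard errors were derived from the F statistics. CPM were taken over all tested genes after TMM scaling. Log2 CPM used a prior count of 2. The methods of the study removed 1 Snhg11-ASO sample, not named, before DESeq2. No label says more of the replicates than their number, and the study describes 3 mice per group. The fits were tested on simulated counts with known changes.

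The 10 genes and the lists were chosen with earlier results of these data known. Named are the 10 genes, their 5 family relatives, up to 2 genes of smallest unadjusted p per direction from each list (among cell type lists, named for neurons only), Snhg11, the 2 most counted genes inside each of the 10 on its strand, and the 3 genes most like Rbfox1 and Celf2. Coding sequences of the longest annotated transcripts were aligned with MAFFT. After group means were taken off, samples of the same number correlated at 0.297 (number 1), 0.179 (2) and 0.103 (3), each above 0.1, and were treated as pairs on these values alone, since no label ties a number to a day or litter. Correlations between samples of different numbers were not computed, so these values do not show that the pairing is real. The study describes no pairing of the mice. Alternatives were DESeq2 1.42.0, counts of both strands, DESeq2's size factors in edgeR, a mean count of 10 or more, no filter, a block for the replicate number, offsets that take a loess trend with genomic span out of each sample, the same with the block, each sample left out in edgeR, and DESeq2 without each Snhg11-ASO sample. Chosen after seeing the data were long minus short without Elavl3, the neuron marker sum without Syt1 and the naming of Gm26315 and Gap43.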

Additional observations from a re-analysis of the deposited data

How the results depend on the processing

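Direction was kept in 163 of the 170 values from 10 genes and 17 alternatives. These alternatives refit the same libraries, all of them or all but 1, so their values are not independent of each other. The 7 reversals were Rbfox1 at 0.40 with the span offsets, 0.42 with the span offsets and the replicate block and 0.09 without Control-ASO replicate 2, Celf2 at 0.23 in both span fits, and Nova2 at 0.11 without Snhg11-ASO replicate 3 in edgeR and in DESeq2 (-0.43 without replicate 1). The replicate block moved Elavl3 to -1.02 (adjusted p = 0.426 from edgeR) and changed no call among the 10 genes at an adjusted p under 0.05, with 2 of the 10 at an unadjusted p under 0.05 (Elavl3 and Elavl4) instead of 1. That count was 2 without a filter and 4 with the span offsets (Elavl3, Rbfox1, Rbfox2 and Celf2, the last 3 above 0). It was also 4 with the span offsets and the block (Elavl3, Elavl4, Rbfox1 and Rbfox2). Values in the span fits are relative to the trend with span and are not changes in level. Without offsets, over all 6 samples, Rbfox1 was at -0.05 and Celf2 at -0.14. Over all genes the share at an unadjusted p under 0.05 in the same fits was 8.59% with the block, 6.34% without a filter, 7.48% with the span offsets and 7.99% with both. With 1 sample left out the count ranged from 1 to 3, with 3 reached without Control-ASO replicate 2 (8.07% of all genes) or without Snhg11-ASO replicate 1 (9.94% in edgeR, 9.21% in DESeq2). The number of the 10 genes past the adjusted threshold was 0 in every edgeR fit and 1, Elavl3, in each DESeq2 fit. Over all genes, edgeR called 0 genes and DESeq2 258, and with a sample left out the calls ranged from 0 in edgeR (2 without Snhg11-ASO replicate 1) to 347 in DESeq2 without that replicate, with 275 and 223 without replicates 2 and 3. The cause of the difference between the tools was not tested. The median of the 10 genes was -0.10 in both span fits and ranged from -0.24 to -0.14 with a sample left out, the latter without Control-ASO replicate 1. Long minus short was 0.54 with the span offsets, 0.56 with the block as well, and 0.13 (without Control-ASO replicate 3) to 0.31 (without Control-ASO replicate 2) with a sample left out. The median of other alternative splicing regulators was 0.03 with the block and 0.11 with the span offsets, and that of the transport and translation list 0.04 with the span offsets. All genes rest on 3 samples a group, and a p that misses the threshold does not show that levels were equal. Counts per gene show neither isoforms nor exon use.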
